A study of Mus musculus with 4 samples.

Results

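Chemokines of lymphocytes and dendritic cells, together with the receptors that read them, were examined by RNA sequencing in the dorsal skin of mice treated with imiquimod (IMQ). The genes were taken by symbol from the deposited tables. They comprise 5 ligands (*Ccl17*, *Ccl19*, *Ccl20*, *Ccl22* and *Ccl27a*) and 4 receptors (*Ccr4*, *Ccr6*, *Ccr7* and *Ccr10*), 9 genes of the 24346 symbols listed. All 4 libraries came from male C57BL/6 mice that were 8 weeks old when the diet began, had eaten the NASH diet (high in fat, cholesterol and sucrose, with bile salt) for 3 weeks and had then received IMQ cream for 1 day. The Cont-IMQ group (n = 2) ate that diet alone, and in the 7KC-IMQ group (n = 2) it also held 7-ketocholesterol (7KC), an oxidized form of cholesterol. Skin without IMQ was not analysed here, so each value describes skin that had already met IMQ. The question was whether the 7KC diet changed these signals at the onset of the dermatitis.

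Chemokines are small secreted proteins that guide leukocytes carrying the matching G protein-coupled receptor. *Ccl17* and *Ccl22* encode the ligands of CCR4, a receptor of skin-homing, type 2 helper and regulatory T cells, and dendritic cells are a well-known source of both. CCL20 from keratinocytes attracts cells with CCR6, among them T cells that make IL-17. CCL19 binds CCR7, by which mature dendritic cells and naive T cells find the T cell zone of lymph nodes. *Ccl27a* encodes a chemokine made by keratinocytes that draws skin-homing T cells with CCR10. IMQ itself is a ligand of Toll-like receptor 7, and its cream is widely used to bring about psoriasis-like dermatitis in mice.

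Values are FPKM, in which the reads of a gene are scaled to its length and to the reads mapped in the library, so that genes can be compared with each other, and the spacing of low values in single-transcript genes gave an estimate of between 14980000 and 16180000 mapped reads per library. Nothing in the labels says whether replicates 1 and 2 were taken from separate animals, so the p-values measure only the spread between these libraries. Genes of keratinocytes marked the tissue as skin, with *Krt14* between 4132 and 5700 FPKM and the Langerhans cell gene *Cd207* between 18.8 and 24.3 FPKM. Of 6 B cell genes, *Ms4a1*, *Cr2* and *Pax5* were listed at 0 in every library. The 2 Cont-IMQ libraries differed widely in 7 hair follicle genes, whose summed FPKM was 95.8 in replicate 1 and 1309 in replicate 2. The 7KC-IMQ libraries lay between them, with 371 and 326 FPKM. Of 6 muscle genes, 2 were higher and 1 was lower with 7KC without overlap, and of 5 adipocyte genes 2 were higher and 0 lower. The shares over all genes tested were 23.9% higher and 22.9% lower. The muscle gene *Ckm* was higher (800 and 723 against 825 and 915 FPKM). The fast myosin gene *Myh4* was also higher with 7KC (125 and 62.9 against 427 and 329 FPKM). So were the adipocyte genes *Lep* (1.64 and 1.16 against 9.75 and 3.70 FPKM) and *Plin1* (17.4 and 19.5 against 26.0 and 22.7 FPKM). The actin gene *Acta1* was lower (2848 and 3133 against 2106 and 2583 FPKM), and the other genes of both lists overlapped. The summed levels of the muscle and adipocyte lists overlapped, and the part of these tissues in the results was not tested. In bulk tissue, fewer cells of a type and less RNA per cell cannot be told apart.

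The ligands were far more abundant than the receptors. *Ccl20* stood highest, with a mean of 288 FPKM over the 4 libraries, above 98.0% of the 15896 genes tested, and its lowest library exceeded the highest library of every other gene of the group. *Ccl19* followed with a mean of 103 FPKM, *Ccl27a* with 45.6, *Ccl17* with 15.4 and *Ccl22* with 11.1 FPKM. The ranges of neighbours in this order overlapped from *Ccl19* down to *Ccl22*. All receptors lay below all ligands except that *Ccl17* had 4.58 FPKM in Cont-IMQ replicate 2. *Ccr7* was the most abundant receptor, with a mean of 5.41 FPKM, followed by *Ccr4* with 2.84 FPKM, and these 2 did not overlap. *Ccr6* with 0.595 and *Ccr10* with 0.327 FPKM overlapped with each other and were the scarcest.

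Between the diets, 3 of the 9 genes did not overlap. *Ccl19* and *Ccr6* were higher and *Ccl27a* was lower in each 7KC-IMQ library than in either Cont-IMQ library, whereas the libraries of the other 6 genes overlapped. The difference was tested on log2(FPKM + 1) by limma across 15896 genes with Benjamini-Hochberg adjustment, a scale on which the fold change of a low gene is understated. None of the 9 genes passed an adjusted p of 0.05 (adjusted p between 0.352 and 0.985 in limma), in a comparison where 1 gene of all those tested did (0.00629%). At an unadjusted p under 0.05, 2 of the 9 genes were higher and 1 was lower, against 7.5% and 5.47% of all genes. That split over all genes, 1192 higher and 869 lower, became 638 higher and 1229 lower when the libraries were rescaled to the same FPKM sum. Groups without overlap were found in 3 of 9 genes, against 46.8% of all genes tested, so the count itself is below the background. The median log2 difference of the 9 genes was 0.30, and that of all genes tested was -0.01. With 2 libraries in each group, the smallest p-value of an exact permutation test (two-sided) is 0.333.

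**Figure D1:**
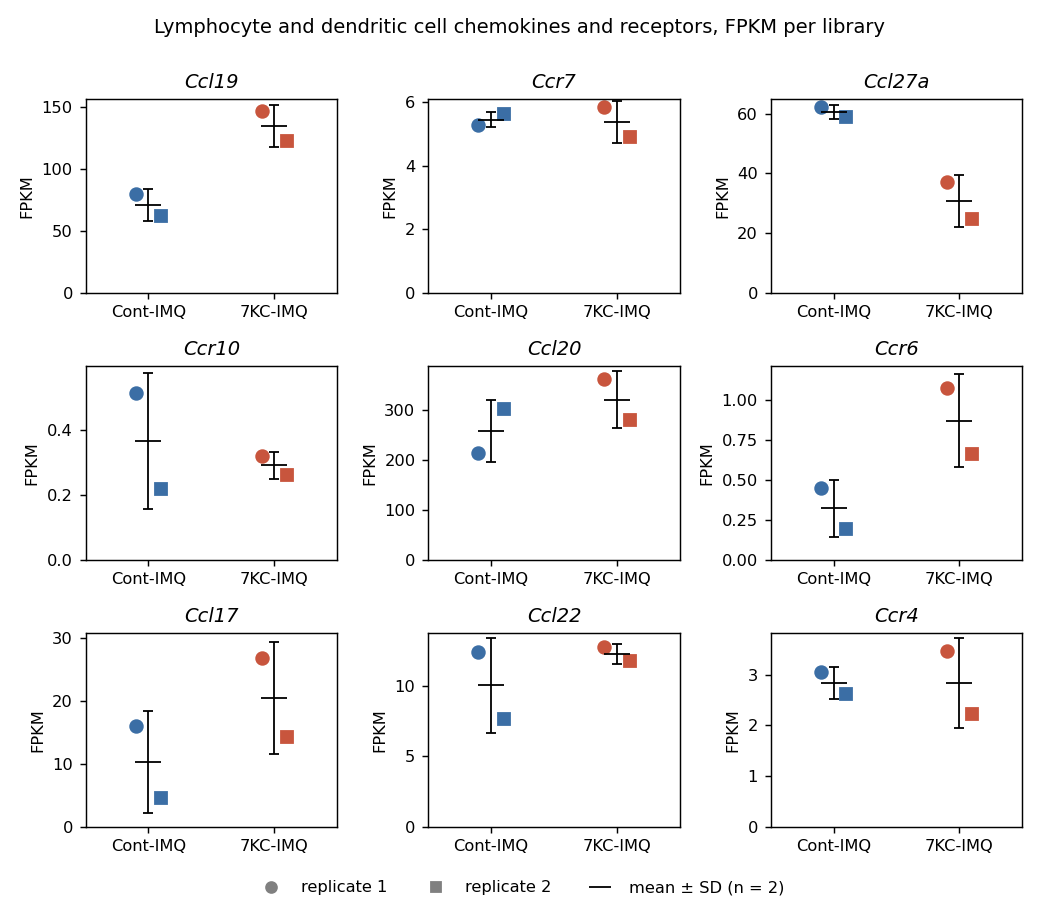
FPKM (vertical axis, from 0, own scale in each panel) of the 9 genes in the 2 Cont-IMQ libraries (blue) and the 2 7KC-IMQ libraries (red), with circles for replicate 1, squares for replicate 2 and black bars for mean ± SD. The groups stand apart for *Ccl19*, *Ccl27a* and *Ccr6* only, and *Ccl19* and *Ccl27a* go in opposite directions.

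Promoter windows were available for 7 of the 9 genes from RefSeq (GRCm38.p6), each from 250 bases before to 50 bases after a start. *Ccr7* and *Ccr10* had none. Those of the 3 genes whose groups did not overlap are shown with that of *Ccl20*, the ligand of CCR6, 5′ to 3′ on the strand of the gene. Capitals mark letters found in a search of both strands for the NF-kB consensus, the AP-1 motif TGANTCA, the STAT motif TTCNNNGAA and the TATA box TATAAA. The *Ccl19* window is chr4:42756316-42756615 (minus strand), the *Ccl27a* window is the most downstream of its 3 windows at chr4:41770163-41770462 (minus strand), the *Ccl20* window is chr1:83116516-83116815 (plus strand) and the *Ccr6* window is the second of 2 at chr17:8242276-8242575 (plus strand).
Ccl19: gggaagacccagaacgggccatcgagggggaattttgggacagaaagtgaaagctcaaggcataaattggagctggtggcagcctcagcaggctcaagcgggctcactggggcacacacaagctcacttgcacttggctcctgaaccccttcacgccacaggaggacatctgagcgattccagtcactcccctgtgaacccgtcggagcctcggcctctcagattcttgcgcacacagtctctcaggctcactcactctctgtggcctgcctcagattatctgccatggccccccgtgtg
Ccl27a: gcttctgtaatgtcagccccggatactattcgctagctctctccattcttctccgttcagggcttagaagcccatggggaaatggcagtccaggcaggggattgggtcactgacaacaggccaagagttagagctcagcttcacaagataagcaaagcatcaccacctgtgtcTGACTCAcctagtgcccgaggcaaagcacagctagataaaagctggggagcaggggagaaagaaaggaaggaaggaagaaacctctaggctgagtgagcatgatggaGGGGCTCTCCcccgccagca
Ccl20: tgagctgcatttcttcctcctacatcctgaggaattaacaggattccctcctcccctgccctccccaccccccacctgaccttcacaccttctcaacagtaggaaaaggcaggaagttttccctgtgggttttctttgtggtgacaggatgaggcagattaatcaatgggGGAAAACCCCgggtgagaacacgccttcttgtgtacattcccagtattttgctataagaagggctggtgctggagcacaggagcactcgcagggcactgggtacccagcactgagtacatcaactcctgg
Ccr6: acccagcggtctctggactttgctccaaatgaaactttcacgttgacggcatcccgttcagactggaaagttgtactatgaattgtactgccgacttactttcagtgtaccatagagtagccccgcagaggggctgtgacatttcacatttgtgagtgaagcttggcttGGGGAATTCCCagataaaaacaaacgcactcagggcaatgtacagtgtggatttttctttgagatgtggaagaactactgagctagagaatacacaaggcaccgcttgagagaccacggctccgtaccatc
The *Ccl19* window held none of the 4 motifs. Most of this window lies within the annotated gene, whose 5′ end is at 42756577, so little sequence upstream of that end was searched. The NF-kB consensus was found in the *Ccl20* window, starting 80 bases before the start, and in the *Ccr6* window shown, where 2 matches overlap. In the *Ccl27a* window shown it began 30 bases after the start, and that window also held the AP-1 motif. The other windows of *Ccl27a* and *Ccr6* held no NF-kB match, so those shown are the ones with a match. Of the 10 windows of the 7 genes, 3 held the NF-kB consensus, 2 the AP-1 motif (of *Ccl27a* and *Ccr4*), 2 the STAT motif (of *Ccl17* and *Ccr6*) and 0 the TATA box. Over all 32851 promoter windows, the shares were 4.51%, 7.81%, 8.30% and 13.6%, respectively. These matches describe letters only and were not tied to the measured levels.

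*Ccl19* (ENSMUSG00000071005.7, chromosome 4 of GRCm38, 42754525 to 42756577, minus strand) showed the clearest excess in the 7KC-IMQ group. Replicates 1 and 2 had 80.1 and 61.7 FPKM under the control diet, against 147 and 123 FPKM with 7KC. The groups did not overlap, with a gap larger than the distance between replicates of either group. The means were 70.9 ± 13.0 and 135 ± 17.0 FPKM (SD, n = 2), a ratio of 1.90, and the log2 difference was 0.92 (standard error 0.16, unadjusted p = 0.00305, adjusted p = 0.352 in limma). It stayed between 0.74 and 1.11 when single libraries were left out, the lower value being that without Cont-IMQ replicate 2. A stretch of shared sequence limits this value, because 45.3% of the 75-base windows of the *Ccl19* transcripts also occur in other annotated genes, mainly *Gm2564* and *Ccl19* pseudogenes, none of which was analysed here. How reads were divided among such copies is not given in the sources used here.

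The other genes of the CCR7 system were not higher together with *Ccl19*. *Ccr7* itself (chromosome 11, 99144196 to 99155077) had 5.28 and 5.61 FPKM under the control diet and 5.83 and 4.92 FPKM with 7KC, from an estimated 143, 151, 168 and 131 reads. The libraries of the 2 groups interleaved, and the log2 difference of -0.02 had a 95% interval from -0.33 to 0.29 in limma. *Ccl21a*, which encodes the other CCR7 ligand and lies 16.3 kb from *Ccl19*, had 71.4 and 60.8 FPKM under the control diet and 48.5 and 52.7 FPKM with 7KC. It was thus lower without overlap, by -0.37 on the log2 scale (standard error 0.11, unadjusted p = 0.0197, adjusted p = 0.356 in limma). Of its 75-base windows 61.3% occur elsewhere, and *Ccl21b* and *Ccl21c*, other genes of this ligand, were listed at 0 in all libraries. *Ackr4*, the scavenger that takes up CCL19 and CCL21, had 14.5 and 10.7 FPKM against 9.72 and 7.16 FPKM, a log2 difference of -0.53 (adjusted p = 0.386 in limma). *Ackr4* and *Ccl21a* were both lower and *Ccl19* was higher in the 7KC-IMQ group, whereas the groups overlapped for the receptor.
Cells that could carry CCR7 or make CCL19 were followed by marker genes. The 7 genes of mature migratory dendritic cells summed to 73.8 and 61.4 FPKM under the control diet and 68.2 and 68.5 FPKM with 7KC. Of these, *Fscn1* and *Cd83* were higher and *Ccl5* was lower without overlap, against 23.9% and 22.9% of all genes tested. Of 5 lymphatic endothelial genes, *Pdpn*, which keratinocytes and fibroblasts also express, was higher (33.8 and 32.5 against 63.0 and 57.2 FPKM, log2 difference 0.84, unadjusted p = 2.5e-04, adjusted p = 0.284 in limma). The defining gene *Prox1* had 0.379 and 0.366 against 0.216 and 0.484 FPKM, and 2 others, *Flt4* and *Reln*, were lower without overlap. The part of these cells in the *Ccl19* difference was not tested.

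*Ccl27a* (ENSMUSG00000073888.13, chromosome 4, 41769467 to 41774247, minus strand) differed in the opposite direction. It had 62.1 and 58.8 FPKM in the Cont-IMQ libraries, which were close to each other, and 36.9 and 24.6 FPKM in the 7KC-IMQ libraries. The highest 7KC-IMQ library remained below the lowest Cont-IMQ library. The means were 60.5 ± 2.32 and 30.8 ± 8.75 FPKM (SD, n = 2), a ratio of 0.509, and the log2 difference was -0.98 (standard error 0.20, unadjusted p = 0.00565, adjusted p = 0.352 in limma). Leaving out each library in turn gave between -1.26 and -0.70, with -1.02 without Cont-IMQ replicate 2.
The measurement of *Ccl27a* is less direct than that of most genes. The annotation lists 19 transcripts of 343 to 996 bases. The 8 coding transcripts of its basic set, 343 to 841 bases long, put the reads between 53 and 606 per library, and an FPKM of such short forms depends on how reads are assigned to them. Moreover, 33.3% of its 75-base windows occur in 5 other genes, of which 4 were listed at 0 in all libraries and 1 was not analysed here. For *Ccl27b*, a near-identical copy among them, 98.0% of the windows are shared. On the opposite strand its 3′ end overlaps *Il11ra1*, the gene of the IL-11 receptor alpha chain, in 8 exonic bases. *Il11ra1* had 28.1 and 32.1 FPKM under the control diet and 45.3 and 34.8 FPKM with 7KC, hence higher than under the control diet (log2 difference 0.39, adjusted p = 0.393 in limma). The part of shared reads in the *Ccl27a* difference was not tested.
Its receptor was scarce. *Ccr10* (chromosome 11, 101172997 to 101175443) had 0.513 and 0.216 FPKM under the control diet and 0.320 and 0.260 FPKM with 7KC, from an estimated 12, 5, 8 and 6 reads. Both 7KC-IMQ libraries lay within the Cont-IMQ range, and at this depth no difference was detectable (log2 difference -0.07, 95% interval -0.45 to 0.31 in limma). *Ccl28*, which encodes the mucosal ligand of CCR10, was between 0.0550 and 0.149 FPKM and did not pass the filter on low values. Of 7 T cell genes tested, 3 were lower and 1 was higher without overlap, against 22.9% and 23.9% of all genes, and the median log2 difference was -0.07. *Cd3e* (3.76 and 3.05 against 2.47 and 2.36 FPKM), *Cd3g* (10.1 and 9.61 against 7.62 and 5.59 FPKM) and *Cd247* (2.35 and 1.80 against 1.78 and 1.38 FPKM), which encode chains of the T cell receptor complex, were the lower genes. *Cd3d*, another chain of the same complex, was the higher one (1.45 and 1.46 against 1.57 and 1.47 FPKM), and *Cd2*, *Cd5* and *Lck* overlapped. The summed level of the 8 T cell genes in the files was 24.3 and 20.1 against 19.4 and 16.0 FPKM, and its part in the *Ccl27a* difference was not tested. The 6 keratinocyte genes summed to 23730 and 16108 against 18564 and 20570 FPKM and overlapped.

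*Ccl20* (ENSMUSG00000026166.14, chromosome 1, 83116766 to 83119167) was abundant under both diets. It had 213 and 301 FPKM under the control diet and 361 and 279 FPKM with 7KC. The highest library belonged to the 7KC-IMQ group and the lowest to the Cont-IMQ group, but Cont-IMQ replicate 2 exceeded 7KC-IMQ replicate 2. The means of 257 ± 62.2 and 320 ± 57.7 FPKM (SD, n = 2) therefore differed by about the spread between replicates, with a log2 difference of 0.33 (95% interval -0.24 to 0.90, adjusted p = 0.571 in limma). The estimate was 0.08 without Cont-IMQ replicate 1, 0.14 without 7KC-IMQ replicate 1, 0.51 without 7KC-IMQ replicate 2 and 0.58 without Cont-IMQ replicate 2.
*Ccr6*, the receptor of CCL20 (ENSMUSG00000040899.14, chromosome 17, 8236043 to 8257141), was found at a far lower level. It had 0.447 and 0.195 FPKM under the control diet and 1.08 and 0.663 FPKM with 7KC. The groups did not overlap, and the ratio of the means was 2.71. With the shortest and the longest of its coding transcripts, these values correspond to 7 to 11, 3 to 5, 17 to 27 and 10 to 15 reads. Cont-IMQ replicate 2 was thus at or near 3 reads, a floor that was set and not derived from the data. The log2 difference was 0.50 (standard error 0.17, unadjusted p = 0.0365, adjusted p = 0.366 in limma), it was 0.36 without Cont-IMQ replicate 2, and it was 1.24 with a pseudocount of 0.1.
Gamma-delta T cells, some of which carry CCR6, were followed by 7 marker genes, of which 4 were present in the files. Of these, 3 were higher without overlap, against 23.9% of all genes tested, and none passed the test (adjusted p between 0.356 and 0.924 in limma). *Blk* had 0.286 and 0.144 against 0.561 and 0.725 FPKM, *Cd163l1* 0.897 and 0.584 against 1.29 and 1.42 FPKM, and *Il17re*, which epithelial cells also express, 9.80 and 7.20 against 11.1 and 11.3 FPKM. *Sox13*, the last of the 4 genes present in the files, had 4.56 and 7.64 against 6.70 and 5.89 FPKM and overlapped. The gene segments of the receptor chains were not analysed here, and the summed level of the 4 genes was 15.5 and 15.6 against 19.6 and 19.3 FPKM. The part of these cells in the *Ccr6* difference was not tested. B cells, which carry CCR6 too, were near the limit of detection, with the 6 genes summing to 0.627 and 0.567 against 0.524 and 1.79 FPKM. Of the 3 that were tested, *Cd79a* was higher without overlap (0 and 0.0587 against 0.109 and 0.295 FPKM) and 0 were lower, against 23.9% and 22.9% of all genes tested. The part of B cells in the *Ccr6* difference was not tested.

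*Ccl17* and *Ccl22* are neighbours on chromosome 8, 58.8 kb apart with *Cx3cl1* between them. *Ccl17* (94810453 to 94812036, plus strand) had 16.0 and 4.58 FPKM under the control diet and 26.8 and 14.2 FPKM with 7KC, from an estimated 76, 22, 136 and 67 reads. Cont-IMQ replicate 1 exceeded 7KC-IMQ replicate 2, and the replicates within a group were so far apart that only 0.767% of all genes tested had a larger residual SD. The means of 10.3 ± 8.05 and 20.5 ± 8.91 FPKM (SD, n = 2) gave a log2 difference of 1.08 with a 95% interval from -0.52 to 2.68 (adjusted p = 0.516 in limma). This difference changed with single libraries, being 0.28 without Cont-IMQ replicate 2, 0.65 without 7KC-IMQ replicate 1 and 1.88 without Cont-IMQ replicate 1.
*Ccl22* (94745590 to 94751699, plus strand) had 12.4 and 7.65 FPKM under the control diet and 12.7 and 11.8 FPKM with 7KC. Here too only Cont-IMQ replicate 2 was low, and the other 3 libraries were alike. The log2 difference was 0.30 (95% interval -0.30 to 0.90, adjusted p = 0.616 in limma), and without Cont-IMQ replicate 2 it was -0.02. *Cx3cl1*, the gene between them, had 5.49 and 4.17 against 4.35 and 4.43 FPKM.
*Ccr4*, the receptor of both ligands (chromosome 9, 114490316 to 114504916), had 3.06 and 2.61 FPKM under the control diet and 3.47 and 2.22 FPKM with 7KC. The 7KC-IMQ libraries enclosed the Cont-IMQ libraries, and the log2 difference was -0.01 (95% interval -0.53 to 0.50 in limma). Of 6 regulatory T cell genes, *Tnfrsf18* and *Tnfrsf4* were higher without overlap and 0 were lower, against 23.9% and 22.9% of all genes tested. The defining gene *Foxp3* overlapped (0.353 and 0.113 against 0.147 and 0.157 FPKM). The part of these cells in the *Ccr4* level was not tested.

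**Figure D2:**
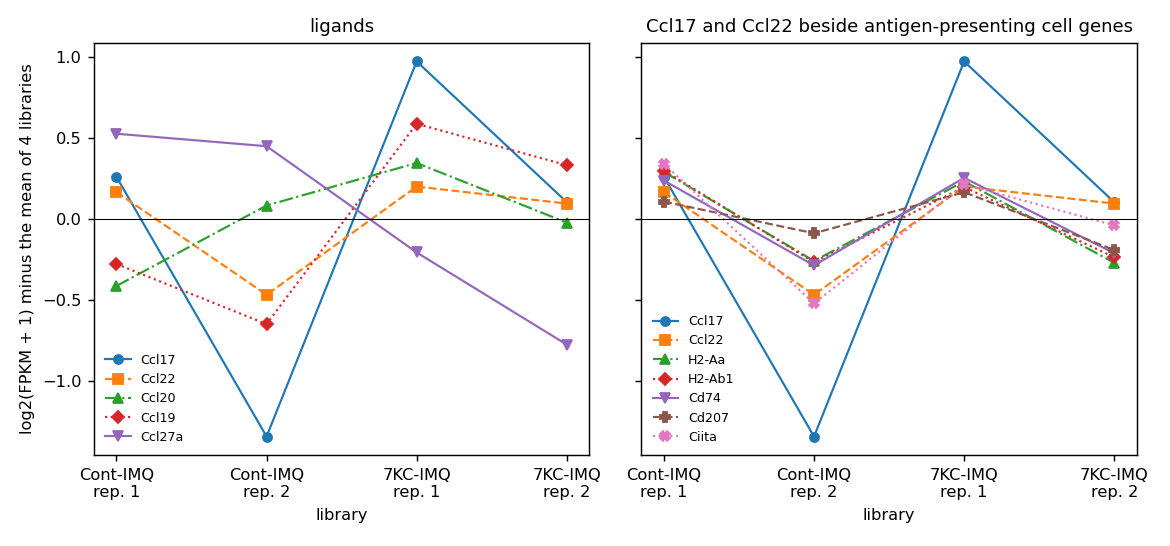
Log2(FPKM + 1) of single genes minus their mean over the 4 libraries (vertical axis) by library (horizontal axis), with lines that only join the points of a gene. On the left *Ccl17* swings from -1.34 in Cont-IMQ replicate 2 to 0.98 in 7KC-IMQ replicate 1. On the right every gene drawn is higher in the replicate numbered 1 than in that numbered 2 of each group. These are *Ccl17*, *Ccl22*, *H2-Aa*, *H2-Ab1*, *Cd74*, *Cd207* and *Ciita*. Not all genes of the dendritic and Langerhans cell lists share this order. *Batf3* was higher in the replicate numbered 2 of both groups, and *Cd24a* and *Clec9a* in that of the 7KC-IMQ group. The remaining genes of these lists followed the order of those drawn.

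Genes of antigen-presenting cells did not share one order over the libraries. In the dendritic and Langerhans cell lists, *Ciita*, *Itgax*, *Xcr1*, *Cd74*, *H2-Ab1*, *H2-Eb1*, *Epcam* and *Cd24a* were lowest in Cont-IMQ replicate 2. So were *Ccl17* and *Ccl22*. The other genes of these lists, *H2-Aa*, *Batf3*, *Cd209a*, *Flt3*, *Cd207*, *Zbtb46* and *Clec9a*, were lowest in another library. *Ciita*, the master regulator of MHC class II, had 3.36 and 1.40 FPKM under the control diet and 3.00 and 2.35 FPKM with 7KC. *Itgax*, which encodes CD11c, had 2.56 and 1.49 against 3.07 and 2.55 FPKM. *Cd74* had 534 and 371 against 540 and 391 FPKM, and *H2-Ab1* 300 and 202 against 280 and 207 FPKM. The MHC class II gene *H2-Aa* had 257 and 175 FPKM under the control diet and 247 and 174 FPKM with 7KC, so that it was as low in 7KC-IMQ replicate 2 as in Cont-IMQ replicate 2. *Ccl17* differed between these 2 libraries, with 14.2 FPKM in the former and 4.58 FPKM in the latter. The dendritic cell transcription factor gene *Batf3* was highest in Cont-IMQ replicate 2, at 6.04 FPKM, and *Cd209a*, *Flt3* and *Cd207* were lowest in 7KC-IMQ replicate 2, at 3.30, 0.476 and 18.8 FPKM. The Langerhans cell list summed to 1501 and 1098 against 1515 and 1239 FPKM, and the dendritic cell list to 20.6 and 15.4 against 19.2 and 16.6 FPKM. The groups overlapped in both sums, and both were lowest in Cont-IMQ replicate 2. The part of these cells in the levels of *Ccl17* and *Ccl22* was not tested.

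Other chemokines and receptors of lymphocyte and dendritic cell traffic were followed in a list of 30 genes, 24 of which passed the filter on low values. None passed an adjusted p of 0.05 in limma. At an unadjusted p under 0.05, 3 of the 24 genes were higher and 2 lower, against 7.5% and 5.47% of all genes tested. Without overlap, 6 were higher and 5 lower, against 23.9% and 22.9% of all genes tested. The median log2 difference of the list was -0.02.
*Cxcl9*, an interferon-induced ligand of CXCR3, had 10.7 and 11.3 FPKM under the control diet and 16.0 and 18.7 FPKM with 7KC (log2 difference 0.61, standard error 0.11, adjusted p = 0.352 in limma). Its receptor *Cxcr3* was lower without overlap, with 0.741 and 0.515 against 0.476 and 0.141 FPKM. *Ccl25*, known as the ligand of CCR9 in thymus and gut, had 1.46 and 1.37 against 2.28 and 2.06 FPKM (log2 difference 0.39). *Cxcr6*, the receptor of CXCL16 on resident T cells, had 0.885 and 0.622 against 1.15 and 1.68 FPKM (log2 difference 0.46). In addition to *Ccl21a*, the gene lower at this level was *Ccl5*, a chemokine made by T cells among others, with 16.5 and 15.7 against 12.8 and 12.8 FPKM (log2 difference -0.31). *Ackr2*, a scavenger of inflammatory CC chemokines that include CCL17 and CCL22, had 6.50 and 5.87 against 6.03 and 4.12 FPKM and overlapped.

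**Figure D3:**
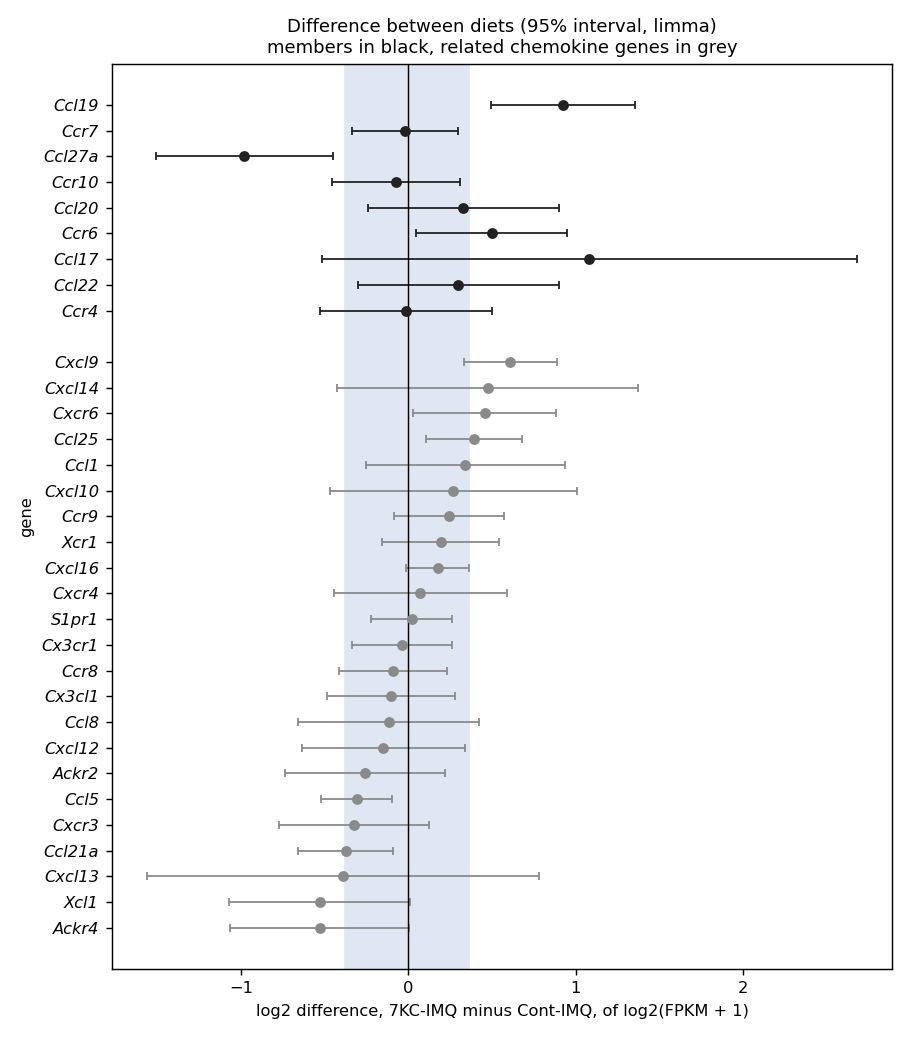
Log2 difference between the 7KC-IMQ and the Cont-IMQ group in log2(FPKM + 1) (horizontal axis, points with 95% intervals from limma, not adjusted for the number of genes) for the 9 chemokine and receptor genes (black) and 23 of the 24 related genes that passed the filter (grey). The blue band holds the 5th to 95th percentile of all genes tested, from -0.38 to 0.36, and the intervals of *Ccl19* and *Ccl27a* lie outside it.

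The genes whose profile over the 4 libraries was nearest to each chemokine were found by the root mean square difference of centred log2(FPKM + 1) among the 13110 genes with a mean of at least 1 FPKM. With 4 libraries this likeness is a description only. For *Ccl19* they were *Rnf122* (0.062), *Tnf* (0.066) and *Il12b* (0.076), the last with 1.41 and 0.855 FPKM under the control diet and 2.87 and 2.40 FPKM with 7KC. *Tnf* had 4.40 and 3.13 against 7.98 and 6.47 FPKM. For *Ccl27a* they were the striated muscle gene *Xirp1* (0.084), *Btc* (0.091) and *Sema3d* (0.10). *Btc*, which encodes the EGF receptor ligand betacellulin, had 10.3 and 10.9 FPKM under the control diet and 6.97 and 3.72 FPKM with 7KC. For *Ccl20* they were *Lepr* (0.045), *Cnn1* (0.056) and *Rspo3* (0.063). *Ccl17* had no close neighbour, its nearest being *Gsdmc2* (0.24), *Gm20257* (0.25) and *Mmp12* (0.28). For *Ccl22* they were *Slc22a18* (0.028), *Ppp1r14a* (0.029) and *Xaf1* (0.035). The profiles of *Ccr4* and *Ccr7*, whose group means were close, were nearest to *Myh11* (0.017), *Guca1a* (0.024) and *Zfp870* (0.029), and to *Fam179b* (0.0079), *Lrch3* (0.0085) and *Erg* (0.011), respectively.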

How the data were processed

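Total RNA of dorsal skin was converted to stranded mRNA libraries and sequenced as 75-base single-end reads, which the authors mapped to mm10 (GRCm38). The submitters' processing notes name TopHat2 2.1.1, Bowtie2 2.2.8, SAMtools 0.1.18 and Cuffdiff 2.2.1, whereas the paper names Cufflinks and other versions. The deposited values are FPKM per gene symbol, 1 table per library, and the strand setting and the handling of reads shared between genes are not given in the sources used here. Groups and replicate numbers follow the sample titles, which give IMQ for 1 day in both groups, while the series' design text speaks of daily cream for the 7KC-IMQ group.

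FPKM values were transformed to log2(FPKM + 1) without rescaling. Genes with a mean of at least 0.1 FPKM were kept (15896, with all 9 chemokine and receptor genes among them) and compared by limma 3.58.1 in R 4.3.3 with a mean-variance trend and Benjamini-Hochberg adjustment. The fit was also run on simulated data with the same spread for all genes, unlike the real data, so that run does not give error rates for these genes. Standard errors and 95% intervals are those of limma, which uses 4.61 degrees of freedom in total.

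Depth was estimated as the number of reads that brought low values of single-transcript genes (200 bases subtracted for the fragment) within 0.1 of whole reads. This held for 73.4% to 76.2% of those genes, against 20% by chance. Estimated reads cover counting error only. Gene models and 75-base windows came from GENCODE M21, and promoters from RefSeq. A value of exactly 0 can be a failed estimate.

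The genes and lists were chosen with earlier results of these data known. Genes named are the 9, related genes that share a receptor or scavenger with them or had an unadjusted p under 0.05, the 3 nearest profiles of each with a mean of at least 1 FPKM, and marker genes. *Cxcr3*, *Cx3cl1*, *Il11ra1* and single marker genes were picked after their values were seen. Alternatives were a pseudocount of 0.1, a mean of at least 1 FPKM, no filter, 3 other scalings, no variance trend, a replicate block and leaving out each library. One gene of the related list is not reported here by name, and it stays in the counts of that list.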

Additional observations from a re-analysis of the deposited data

How the results depend on the processing

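Across the alternatives that kept all libraries, no adjusted p of any of the 9 genes passed 0.05 in limma. Over all 12 alternatives, *Ccl17*, *Ccl19*, *Ccl20*, *Ccl27a* and *Ccr6* kept their direction wherever they were tested. Of 106 values of single genes, 8 changed sign. With quantile normalization *Ccr4* was at 0.049 and *Ccr7* at 0.019, and with single libraries left out the range was -0.018 to 0.62 for *Ccl22*, -0.25 to 0.22 for *Ccr4*, -0.12 to 0.084 for *Ccr7* and -0.23 to 0.085 for *Ccr10*. The number of these genes without overlap between groups was 3 with all libraries, against 46.8% of all genes tested. It rose to between 5 and 8 with a library left out, which leaves 1 library in a group and makes separation easier. The share over all genes was not computed for those settings, so the rise is not a result about these genes. In the main fit, 3 of the 9 genes had an unadjusted p under 0.05 in limma, where 7.5% of all genes tested were higher and 5.47% lower. With the replicate block the count was 4 of 9, and of 15896 genes 978 were higher and 776 lower. With a mean of at least 1 FPKM it was 2 of 7, and of 13110 genes 1080 were higher and 766 lower. Over all genes, the number past the threshold was 1, it was 2 with a pseudocount of 0.1, and it was 1 to 9 with a library left out, and the cause was not tested. Rescaling to the same FPKM sum changed the split of genes at an unadjusted p under 0.05 from 1192 higher and 869 lower to 638 higher and 1229 lower. With a mean of at least 1 FPKM, *Ccr6* and *Ccr10* were not tested. Nothing in the labels says that a replicate number marks a shared litter or day, and the deviations of libraries with the same number correlated at 0.065 over genes. With the replicate block, 0 of the 9 genes and 1 gene in all passed, and the unadjusted p of *Ccl17* was 0.00755 in limma (adjusted p = 0.426, within 0.312 to 0.967 over all alternatives). Low read numbers limit *Ccr6* and *Ccr10*, although *Ccr10*, with an estimated 5 to 12 reads, lay above the set floor of 3 reads.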
